A study of Mus musculus with 2 samples.

Results

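The genes described here are 10 genes of glucose use and of the response to low oxygen: Slc2a1, Hk2, Aldoa, Pgk1, Ldha, Pdk1, Bnip3, Ero1l, Hilpda and Vegfa. They were chosen by symbol, and all 10 were found among the 12638 genes measured in 12458 single immune cells. When oxygen falls, the transcription factor HIF-1 is no longer degraded and binds short DNA sites near genes that move glucose into the cell, run glycolysis, limit the use of pyruvate in mitochondria and call for new vessels. In T cells and macrophages the same glycolytic genes are also induced by activation, with or without a change in oxygen. Solid tumours are a classic site of low oxygen, and tumour macrophages are known for high glycolytic and hypoxia-induced transcripts.

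The cells came from 4 C57Bl6 mice carrying subcutaneous tumours of MC38-OVAdim, a mouse colon carcinoma line that expresses ovalbumin. The study asks what the immune checkpoint receptor TIM-3, the product of Havcr2, does in anti-tumour immunity. WT1 and WT2 were controls with floxed Havcr2 (Havcr2fl/fl), and KO1 and KO2 were labelled knockout. The sources used here do not give the Cre line, the cells it acts in or the age of the mice. No other treatment is named, so all groups share the tumour and the sort of CD45-positive cells, in which dendritic cells (DC) were enriched. Each mouse gave 3 samples: its tumour, the lymph node that drains it (dLN) and a node that does not (ndLN). WT1 and KO1 shared 1 droplet channel of the 10x 5' assay, and WT2 and KO2 the other.

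Samples held 473 to 1691 cells and 3031124 to 28498154 unique molecular identifiers (UMIs, each 1 captured RNA molecule). Tumour cells had a median of 15191 UMIs, dLN cells 4520 and ndLN cells 4633, and 65 barcodes occurred in both channels. Cell types are marker gates: a name such as T cell stands for cells with UMIs of several markers of that type, none of them among the 10 genes. The 645 cells that passed several gates and the 865 that passed none were left out of the classes. Tumours held 284 to 835 macrophages per mouse, and the dLN 3 to 9 or none, while the nodes were led by T and B cells. Havcr2 itself averaged 0.697 and 0.635 UMIs per 10000 in the tumour macrophages of WT1 and WT2, against 0.0937 and 0.0614 in those of KO1 and KO2. In tumour T cells it was 1.30 and 0.489 in WT mice and 1.10 and 0.364 in KO mice, so the groups overlapped there.

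A level below is the mean over cells of UMIs per 10000 UMIs of the cell. Levels are compared between samples or classes for 1 gene, never between genes. A difference is in log2 units of level + 0.1, with its standard error (SE), and was tested with limma across all genes with a UMI in 5% of the cells. P values are adjusted by Benjamini-Hochberg over those genes and called at 0.05. A sample entered a comparison of a class with at least 20 cells of it.

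Slc2a1 (glucose transporter GLUT1) lies at chr4:119108711-119137983, Hk2 (hexokinase 2, which traps glucose in the cell) at chr6:82725025-82774454, and Pgk1 (phosphoglycerate kinase) at chrX:106187100-106203699. Ldha (lactate dehydrogenase A, pyruvate to lactate) lies at chr7:46841475-46855627. Pdk1 (pyruvate dehydrogenase kinase, which holds pyruvate back from the mitochondrial cycle) lies at chr2:71873224-71903858. Bnip3 (a mitochondrial protein of mitophagy) lies at chr7:138890836-138909519 and Ero1l (an oxidase of the endoplasmic reticulum, also named Ero1a) at chr14:45283087-45318771. Hilpda (a lipid droplet protein that restrains lipolysis) lies at chr6:29272488-29275446 and Vegfa (vascular endothelial growth factor A) at chr17:46016993-46032369. For Aldoa (fructose-bisphosphate aldolase) the annotation, GENCODE M21 on GRCm38, lists 2 neighbouring genes, chr7:126795234-126800751 and chr7:126800790-126809108, and the symbol in the matrix does not tell them apart. Pgk1 and Aldoa also have near-identical copies that are rows of their own, Pgk1-rs7 and Aldoart2. Over all tumour cells Pgk1-rs7 averaged 0.610 and Aldoart2 0.0348 UMIs per 10000, so the values of Pgk1 and Aldoa are uncertain by the reads that counting could assign to either copy.

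The promoters are shown because the 10 genes share, as background, regulation by HIF-1, and because most of them moved together below. RefSeq start sites on GRCm38.p6 gave 16 windows for the 10 genes, each of 300 bases, from 250 before to 50 after the start. The letters ACGTG and GCGTG, the core that HIF-1 is known to bind, were searched on both strands (CACGT and CACGC on the printed strand), and the palindrome CACGTG counts once per strand. The printed strand is that of the gene, 5′ to 3′, and capitals mark every match.
Ldha, start 1, chr7:46845554-46845853, plus strand: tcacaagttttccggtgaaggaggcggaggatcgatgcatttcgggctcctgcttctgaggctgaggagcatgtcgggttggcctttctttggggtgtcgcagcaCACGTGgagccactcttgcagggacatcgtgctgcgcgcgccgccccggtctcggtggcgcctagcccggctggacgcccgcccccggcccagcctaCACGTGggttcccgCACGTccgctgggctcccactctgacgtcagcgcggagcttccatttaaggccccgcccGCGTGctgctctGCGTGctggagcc
Bnip3, start 1, chr7:138909457-138909756, minus strand: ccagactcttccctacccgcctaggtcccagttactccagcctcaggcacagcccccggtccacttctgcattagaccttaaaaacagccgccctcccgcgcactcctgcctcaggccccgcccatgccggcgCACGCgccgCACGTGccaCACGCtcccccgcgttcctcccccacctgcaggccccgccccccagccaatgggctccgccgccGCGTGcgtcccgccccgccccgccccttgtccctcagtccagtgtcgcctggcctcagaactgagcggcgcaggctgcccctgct
Hilpda, start 2, chr6:29272376-29272675, plus strand: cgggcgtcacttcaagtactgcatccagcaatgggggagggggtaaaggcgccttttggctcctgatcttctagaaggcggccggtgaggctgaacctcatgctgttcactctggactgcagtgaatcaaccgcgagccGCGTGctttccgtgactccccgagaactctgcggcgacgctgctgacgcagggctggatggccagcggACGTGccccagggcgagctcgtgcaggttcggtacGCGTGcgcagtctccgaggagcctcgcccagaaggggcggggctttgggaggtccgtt
Pgk1, start 1, chrX:106186850-106187149, plus strand: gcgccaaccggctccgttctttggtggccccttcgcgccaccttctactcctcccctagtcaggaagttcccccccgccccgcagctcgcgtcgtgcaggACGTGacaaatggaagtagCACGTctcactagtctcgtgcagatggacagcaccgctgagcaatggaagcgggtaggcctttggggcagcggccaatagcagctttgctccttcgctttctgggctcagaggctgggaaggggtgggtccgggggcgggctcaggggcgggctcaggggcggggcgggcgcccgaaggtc
Pdk1, start 1, chr2:71872974-71873273, plus strand: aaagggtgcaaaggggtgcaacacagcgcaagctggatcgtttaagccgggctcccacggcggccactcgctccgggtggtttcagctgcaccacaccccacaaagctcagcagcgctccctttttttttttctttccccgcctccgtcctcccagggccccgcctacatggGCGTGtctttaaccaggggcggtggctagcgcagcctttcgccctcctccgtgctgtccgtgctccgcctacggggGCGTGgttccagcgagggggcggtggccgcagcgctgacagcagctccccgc
The first Ldha window held 7 matches, with CACGTG at 2 places, and Bnip3 held 5, with CACGTG once. Among the 32851 windows of all genes in the table, 1.66% held 5 or more matches. The second Hilpda start and Ero1l held 3, against 8.93% of all windows with 3 or more. Pgk1 and Pdk1 held 2 each; both in Pdk1 read GCGTG. At least 1 match stood in 13 of the 16 windows and in at least 1 window of every one of the 10 genes, while 43.8% of all windows held one. That share is per window, and some of the 10 genes had more than 1 window. The windows without a match were the first of Aldoa, the first of Vegfa and the second of Pdk1. For Vegfa the matches stood in the second window alone, which lies inside the gene. The match is a description of letters and shows no binding.

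Over all cells of a sample, 9 of the 10 genes were higher in tumour than in dLN and Pdk1 was lower; of all 8785 genes tested, 33.5% were higher and 34.8% lower. Among the genes of uptake and glycolysis, Slc2a1 was at 1.97, 2.63, 2.41 and 1.89 in the tumours of WT1, WT2, KO1 and KO2 and at 0.297, 0.251, 0.320 and 0.331 in their dLN (difference 2.53, SE 0.11, limma adjusted p = 8.51e-09). Ldha was at 17.0, 18.5, 17.4 and 16.8 in tumour and 4.11, 4.05, 4.52 and 3.49 in dLN (2.09, SE 0.06, adjusted p = 8.07e-10). In both genes the lowest tumour lay far above the highest dLN. Aldoa, Pgk1 and Hk2 differed by 2.46, 2.32 and 2.07. Bnip3 had the largest difference of the 10, with 2.64, 3.36, 2.89 and 3.15 in tumour against 0.120, 0.0781, 0.128 and 0.169 in dLN (3.81, SE 0.13, adjusted p = 1.24e-09). Vegfa, Hilpda and Ero1l differed by 2.72, 2.57 and 2.30. The detection filter pooled tumour and node cells. In dLN, 0 to 0.407% of T cells and 0 to 0.312% of B cells had a Vegfa UMI. For Hk2 these shares were 0.813 to 1.97% and 0.789 to 1.67%. In tumour macrophages they were 37.7 to 49.3% for Vegfa and 48.1 to 56.3% for Hk2. Both genes thus entered the test largely through tumour cells, the side that was high. WT2 had the highest tumour level of 9 of the 10 genes, all but Aldoa, where KO1 was highest.

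**Figure D1:**
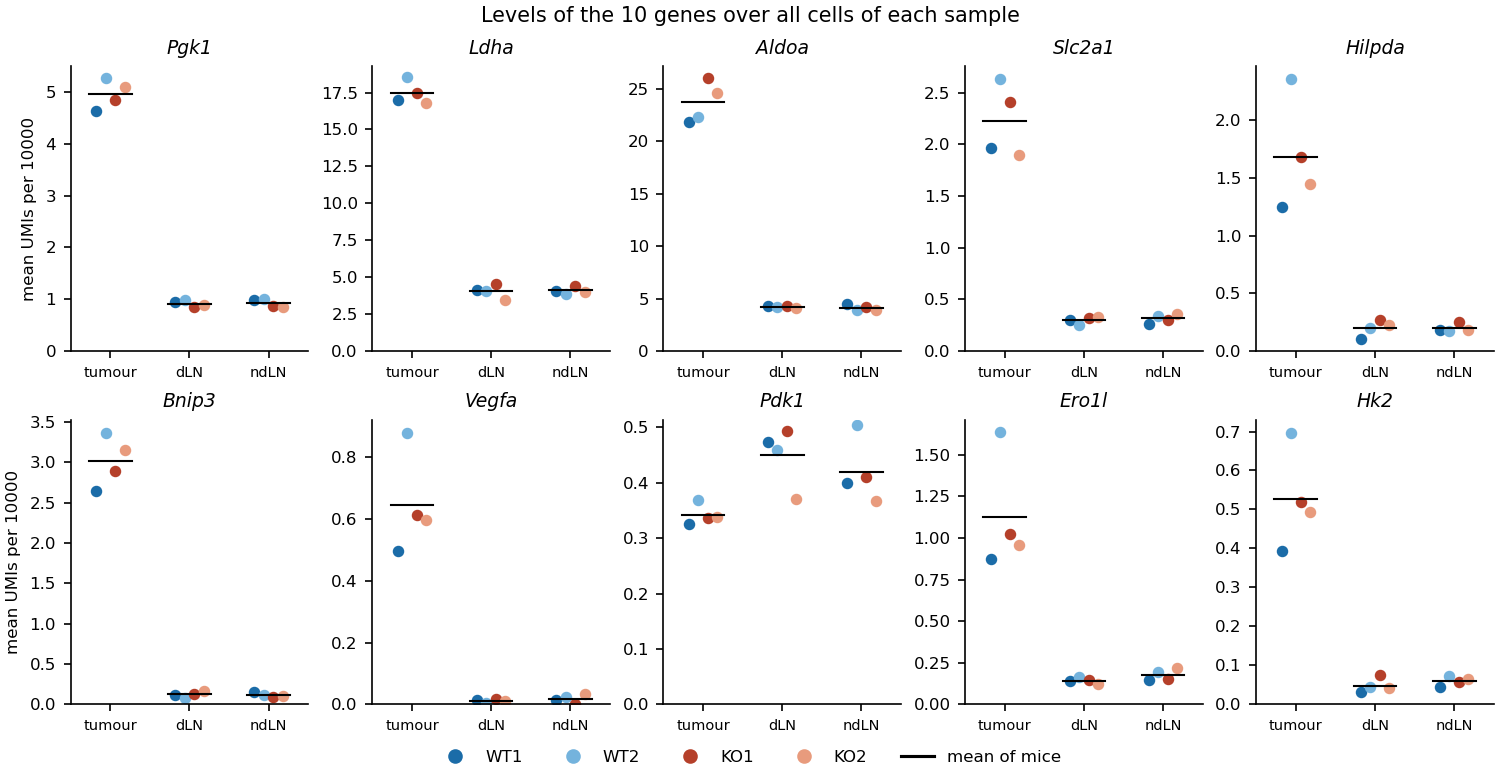
Mean UMIs per 10000 of each gene (vertical axes, linear from 0) over all cells of the tumour, dLN and ndLN samples; points are the 4 mice and lines their means. In every panel but that of Pdk1 the 4 tumours lie above all 8 nodes.

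Pdk1 stood apart from the other 9 genes. Its level was 0.325, 0.368, 0.337 and 0.338 in tumour and 0.474, 0.459, 0.494 and 0.371 in dLN (−0.31, SE 0.08, limma adjusted p = 0.00525). The tumours lay below the dLN without overlap, but the highest tumour and the lowest dLN nearly touched. This call depended on the averaging: the difference was −0.04 (adjusted p = 0.573) when UMIs were summed over cells, and 0.015 (limma adjusted p = 0.460) with the mean of log2 values per cell. Between the nodes, ndLN and dLN, 0 of the 10 genes were called by limma, 0 had an unadjusted p below 0.05 and limma-voom called 0; in that comparison 0% of all genes were called. The intervals of those 10 differences ran from −0.33 to 0.47.

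Tumours and nodes hold different cells, and the levels by class show which ones carried the 10 genes. Among the classes with 20 cells per mouse in at least 2 mice, Pgk1, Ldha and Aldoa had their highest tumour mean in macrophages, and Slc2a1, Bnip3, Vegfa, Ero1l and Hk2 in monocytes, which are the Ly6c2-positive, C1q-poor cells. Among the same classes Hilpda was highest in T cells and monocytes, whose ranges overlapped each other and that of macrophages. The macrophage and monocyte ranges also overlapped for Pgk1, Ldha, Bnip3, Ero1l and Hk2. Of the 10 genes, Pdk1 alone had its highest mean over these classes outside the tumour, in T cells of dLN. Tumour B cells were at 20.4% of the macrophage mean for Pgk1, at 19.6% for Aldoa, and had no UMI of Ero1l or Hk2.

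**Figure D2:**
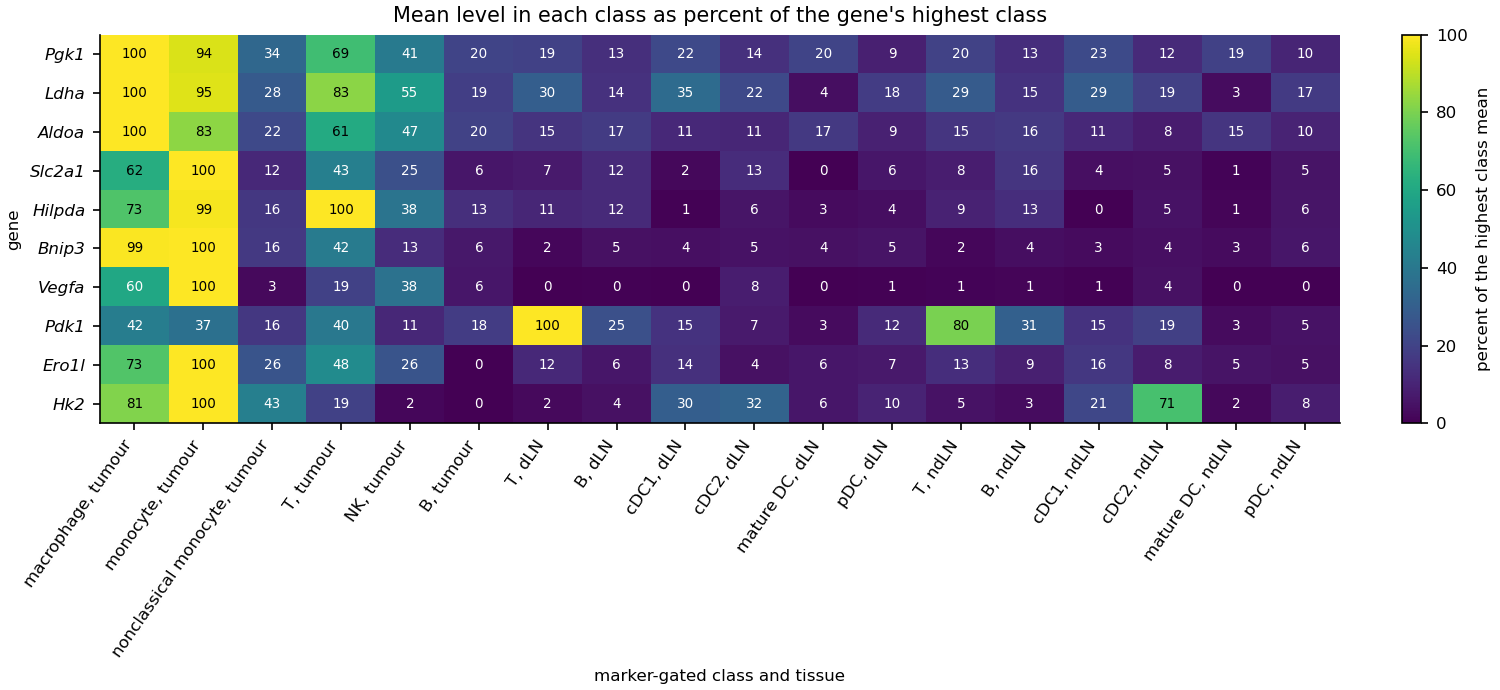
Mean level over mice of each gene (rows) in each marker-gated class and tissue with 20 cells in at least 2 mice (columns), as percent of the gene's highest class. The tumour macrophage, monocyte and T cell columns are high for most genes, and Pdk1 is highest in node T cells.

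T cells allowed the tissues to be compared within 1 cell type in all 4 mice, with 20 to 139 T cells per tumour and 375 to 508 per dLN. Of the 8 genes that passed the detection filter, 7 were higher in tumour T cells and Pdk1 was lower; 18.4% of all 7063 genes were higher and 7.56% lower. The 8 genes had a median difference of 1.84, against 0.11 over all genes, and each was called under all 13 alternatives, WT2 with its 20 cells left out among them. Bnip3 passed the filter through its tumour cells. Over the mice, 25.0 to 45.0% of tumour T cells had a Bnip3 UMI, but only 1.38 to 3.91% of dLN T cells, which alone is under the filter. Its place among the genes tested thus depended on the side that was high. Vegfa and Hk2 were under the filter and were not tested. Hk2 was at 0.0562, 0.234, 0.163 and 0.0778 in tumour T cells and 0.0102, 0.0307, 0.0152 and 0.0103 in dLN T cells, and Vegfa was high in the tumour T cells of WT2 alone (0.710).

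Among the genes of uptake and glycolysis, Slc2a1 was at 1.26, 2.43, 1.70 and 0.902 in tumour T cells of WT1, WT2, KO1 and KO2 and at 0.310, 0.256, 0.231 and 0.252 in dLN T cells (2.13, SE 0.22, limma adjusted p = 4.65e-05). Aldoa was at 18.1, 13.8, 22.7 and 12.7 against 4.14, 4.18, 4.15 and 4.25 (1.94, SE 0.13, adjusted p = 2.77e-06). Every tumour was above every dLN sample in both genes. Pgk1 was at 3.63, 3.03, 4.77 and 3.57 against 1.07, 1.03, 1.02 and 1.06 (1.73, SE 0.13, adjusted p = 5.87e-06). Ldha was at 17.2, 14.0, 18.3 and 13.6 against 6.09, 5.36, 5.93 and 5.28 (1.45, SE 0.09, adjusted p = 1.14e-06). Both again differed without overlap.

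The largest differences were those of Bnip3, which passed the filter through its tumour cells, and Hilpda. Hilpda was at 2.36, 1.63, 1.93 and 2.33 in tumour T cells and 0.146, 0.229, 0.255 and 0.271 in dLN T cells (2.74, SE 0.19, limma adjusted p = 2.61e-06). Bnip3 was at 1.66, 1.56, 1.66 and 0.827 against 0.0520, 0.0185, 0.0769 and 0.0787 (3.26, SE 0.25, adjusted p = 4.59e-06). The dLN values of Bnip3 are of the order of the added 0.1, so its log2 difference understates the ratio. Ero1l was at 0.460, 1.05, 0.883 and 0.507 against 0.149, 0.204, 0.163 and 0.187 (1.52, SE 0.22, adjusted p = 0.000451). None of the 3 genes overlapped between the tissues. How many of all genes lacked such overlap is not given here, so its absence only describes the values.

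Pdk1 went the other way, at 0.438, 0.345, 0.360 and 0.280 in tumour T cells and 0.889, 0.816, 0.998 and 0.848 in dLN T cells (−1.12, SE 0.17, limma adjusted p = 0.000594). In ndLN T cells it was 0.669, 0.932, 0.665 and 0.573, again above every tumour. Unlike its difference over all cells, this one was called under all 13 alternatives, with values from −1.21 to −0.30. The direction was the same in CD8 T cells of WT1 and KO1, the mice with enough of them, where Pdk1 differed by −1.22 (SE 0.22, adjusted p = 0.000202) and the other 7 genes by 1.54 to 2.60; 22% of all genes were higher and 8.28% lower there.

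Depth and makeup moved with these differences. The median depth of T cells was 6380 to 7001 UMIs in tumour and 4448 to 4972 in dLN. With every cell thinned to 2000 UMIs, 18.5 to 29.3% of tumour T cells and 2.95 to 4.92% of dLN T cells had a Hilpda UMI (unthinned, 40.0 to 54.0% and 7.72 to 11.2%). In tumour B cells, with median depths of 2912 and 3892.5 UMIs, the thinned Hilpda share was 3.75 to 6.08%. For Bnip3 the thinned shares in T cells of tumour and dLN were 9.42 to 20.5% and 0.383 to 1.56%, and for Pdk1 5.77 to 7.36% and 15.2 to 17.5%. Regulatory T cells were 13.6 to 29.5% of T cells in tumour and 2.56 to 4.07% in dLN. The handling stress genes (8 genes, Fos and Jun among them, none at 0) summed to 28.2 to 48.1 in tumour T cells and 20.3 to 29.8 in dLN T cells. The part of regulatory T cells and of handling in the result was not tested; within CD8 T cells, none of which has a Foxp3 UMI, the differences were those given above.

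Macrophage RNA can enter other droplets. The 9 macrophage markers, 1 of them at 0 in each tissue, summed to 0.708 to 6.99 in tumour T cells and 0.194 to 0.780 in dLN T cells, with the highest value in the 20 cells of WT2. The 3 C1q genes were in tumour T cells at 0.188 to 0.436% of the macrophage level of the same mouse. T cells that also passed the macrophage gate had been left out. Ldha was at 70.9 to 95.4% of the macrophage level in those T cells, Hilpda at 91.9 to 182% and Bnip3 at 22.8 to 52.3%.

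The counts of related genes in T cells are read against the same 18.4% of all genes higher and 7.56% lower. Of 16 further genes of glucose entry and glycolysis tested, 12 were higher in tumour T cells and 2 lower, with a median difference of 1.46. The lactate exporter Slc16a3 differed by 3.45, the glycolytic enzymes Tpi1, Pgam1 and Gapdh by 3.05, 2.28 and 1.79. Of 14 other hypoxia-induced genes 10 were higher and 1 lower, among them Bhlhe40 (a transcriptional repressor, also an activation gene of T cells) at 3.87, Rora (a nuclear receptor) at 1.94 and Ndrg1 (a stress-response gene) at 1.87. Of 7 oxygen-sensing genes 2 were higher, Hif1a (the regulated subunit of HIF-1, 2.51) and Egln3 (a prolyl hydroxylase that marks HIF for degradation, 1.04). Of 7 genes of pyruvate entry to mitochondria 0 were higher and 1 was lower. With 7 genes each, the counts of these last 2 lists lie near the shares of all genes.

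B cells were enough in WT1 (23 tumour cells) and KO1 (20) alone, and none of their 7 tested genes was called between tumour and dLN by limma; 0 had an unadjusted p below 0.05, limma-voom called 0, and 0.261% of all genes were called. Ldha was at 2.90 and 4.16 in tumour B cells and 2.70 and 2.99 in dLN B cells of these mice (0.28, 95% interval −0.23 to 0.79). Slc2a1 was at 0.341 and 0.104 against 0.508 and 0.432 (−0.92, interval −2.04 to 0.19). Hilpda was at 0.304 and 0.250 against 0.129 and 0.308. Aldoa had the narrowest interval, −0.37 to 0.49 around 0.06. The intervals of Hilpda (−0.92 to 1.52) and Bnip3 (−0.94 to 1.63) were wider.

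The difference between tumour and dLN was larger in T than in B cells of these 2 mice for 7 of 8 genes in a test added after the values were seen; 4.04% of all genes were larger in T cells. Aldoa had the smallest adjusted p, with a difference of differences of 2.21 (SE 0.20, limma adjusted p = 0.00449), and Bnip3 followed with 3.09 (SE 0.39, adjusted p = 0.00819). Over the mice, a Bnip3 UMI was in 25.0 to 45.0% of tumour T cells, 1.38 to 3.91% of dLN T cells and 3.98 to 6.32% of dLN B cells. Its place among the genes tested thus depended mostly on tumour T cells, the side that was high. Limma-voom called 4 of the 8 genes. For Pdk1 the value was −0.34 (interval −2.13 to 1.46). Fits on 2 mice leave few degrees of freedom, so their spread is mostly that shared over genes. C1q genes were at 1.22 to 3.75% of the macrophage level in tumour B cells, more than in T cells, while Hilpda was at 16.8 to 23.4%.

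**Figure D3:**
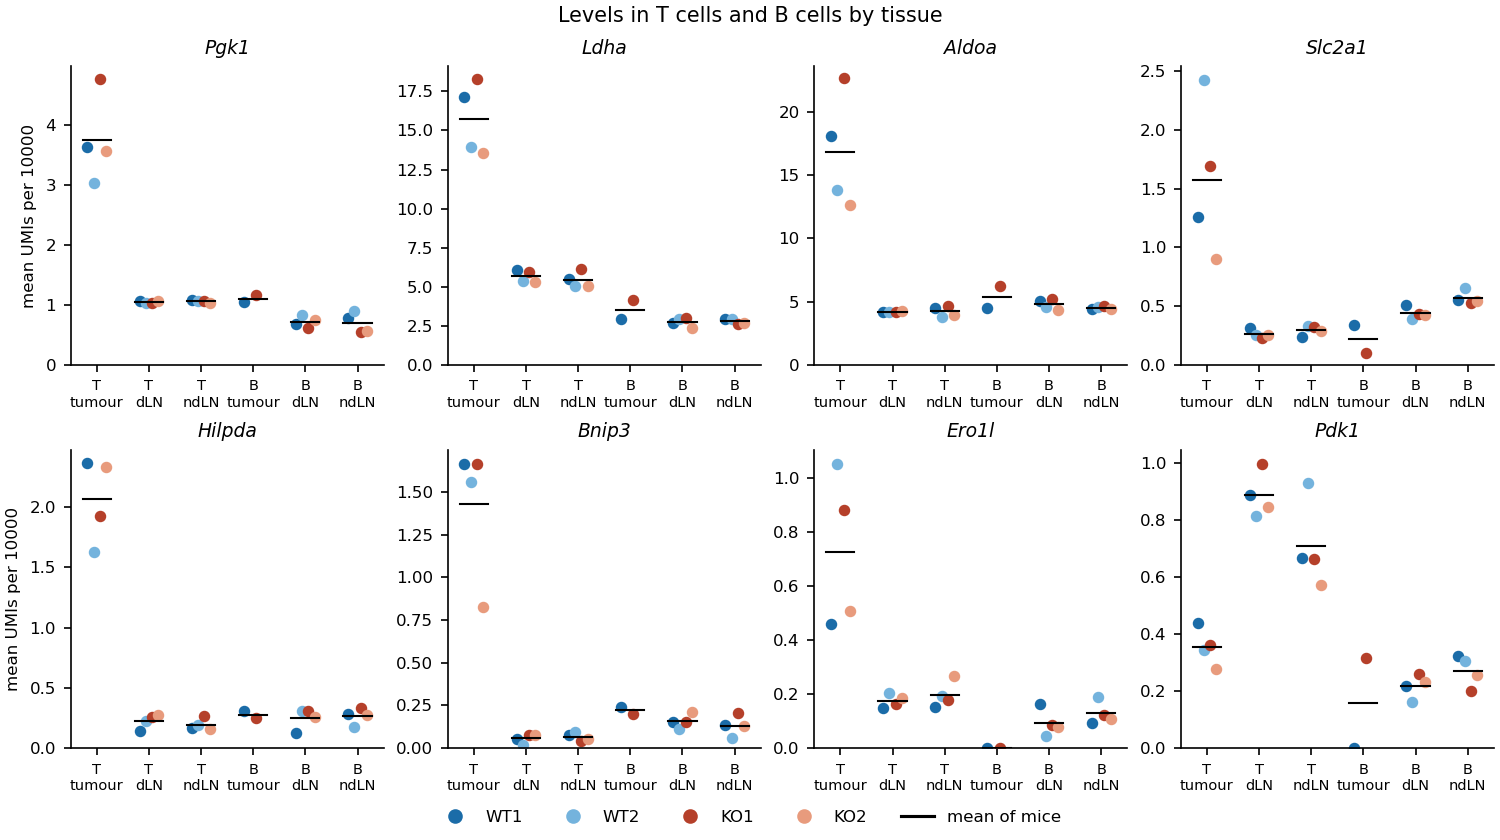
Mean UMIs per 10000 (vertical axes, linear from 0) of 8 genes in T and B cells of each tissue, Vegfa and Hk2 not being drawn; points are mice and lines their means, and tumour B cells reached 20 cells in WT1 and KO1 only. In the 7 panels other than Pdk1 the tumour T cells stand above all other samples drawn, and in that of Pdk1 the node T cells do.

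Among tumour classes, macrophages set the comparison. Against B cells 10 of 10 genes were higher in macrophages (27.2% of all 9427 genes were), and against nonclassical monocytes, the patrolling Ace-positive cells, 10 of 10 (14% of all genes). The detection filter pooled all tumour classes of the fit. Ero1l and Hk2 had no UMI in tumour B cells, and Vegfa had one in 0 to 5.0% of them. In macrophages the shares were 62.2 to 70.5%, 48.1 to 56.3% and 37.7 to 49.3%. Their place among the genes tested thus depended on the classes that were high. Hk2 was also near 0 in NK cells (0.00978 to 0.0124). Against NK cells 8 of 10 were higher (15.6%), with Hilpda and Vegfa not called. Against T cells 6 of 10 were higher (17.1%): Pgk1, Aldoa, Bnip3, Vegfa, Ero1l and Hk2. Some of these calls did not hold with limma-voom, which called 7 of 10 against B cells, without Hilpda (adjusted p = 0.281), Vegfa (0.0779) and Pdk1 (0.110), 8 of 10 against nonclassical monocytes and 6 of 10 against NK cells. Against nonclassical monocytes the Pdk1 call was lost under 5 alternatives, among them leaving out WT2 (adjusted p = 0.181) or KO2 (0.0670), and the Hk2 call under 4, among them leaving out WT1 (0.0837) or KO1 (0.0885). Against NK cells the Pdk1 call was lost under 3, among them leaving out WT2 (0.0610).

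Vegfa had the largest difference between macrophages and T cells, at 0.542, 0.629, 0.689 and 0.675 in macrophages of WT1, WT2, KO1 and KO2 and at 0.0345, 0.710, 0.0816 and 0 in T cells (1.79, SE 0.40, limma adjusted p = 0.00175). WT2, with 20 T cells, was the exception, with a T cell level above its macrophages. Hk2 was at 0.472, 0.600, 0.601 and 0.554 against 0.0562, 0.234, 0.163 and 0.0778 (1.56, SE 0.23, adjusted p = 2.47e-05), with no overlap. Hilpda was at 1.30, 1.77, 1.49 and 1.42 in macrophages (−0.43, SE 0.47, adjusted p = 0.534), overlapping the T cells. Ldha, at 19.6, 19.7, 19.2 and 17.9, differed by 0.29 (interval 0.00 to 0.57, adjusted p = 0.119). Leaving out KO2 left 3 of 10 genes called against T cells, without Pgk1, Bnip3 and Ero1l. The Pgk1 call was also lost without WT1 (adjusted p = 0.0510) and without WT2 (0.0777). The Ero1l call (0.59, SE 0.20, adjusted p = 0.0324) was lost under 7 alternatives, among them summed UMIs (0.21).

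Nonclassical monocytes were low beside macrophages of the same tumours. Ldha was at 5.18, 6.42 and 4.52 in those of WT1, WT2 and KO1 (macrophages higher by 1.86, SE 0.15, limma adjusted p = 4.21e-08). Slc2a1 was at 0.619, 0.488 and 0.156 (2.41, SE 0.30, adjusted p = 7.89e-06). Both genes lie below every macrophage sample. Aldoa, at 5.77, 6.65 and 5.78, differed by 2.20.

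Between macrophages and gated monocytes 0 of 10 genes were called by limma, 1 (Slc2a1) had an unadjusted p below 0.05, and 13% of all genes were called. The ranges of Slc2a1, Vegfa and Aldoa nevertheless did not overlap. Slc2a1 was at 2.25, 2.32, 2.55 and 1.97 in macrophages and 3.21, 4.05, 3.86 and 3.49 in monocytes (−0.66, SE 0.27, adjusted p = 0.134). Vegfa was at 0.542 to 0.689 in macrophages and 0.886 to 1.26 in monocytes, and Aldoa at 25.2 to 30.0 and 21.7 to 24.8. Limma-voom called 5 genes, Aldoa as higher in macrophages and Slc2a1, Vegfa, Ero1l and Hk2 as lower. This comparison depended on how monocytes were defined. With Leiden clusters named by the same markers all 10 genes were higher in macrophages, by 1.39 for Slc2a1 and 3.10 for Hilpda. Clustering used the measured genes, and cluster 3, named macrophage by its majority, held 52.0 to 66.1% of each mouse's gated monocytes. In that cluster the gated monocytes of WT2 had an Ldha level of 28.2, against 6.17 in cluster 11, named monocyte.

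Macrophages were uneven among themselves. Cluster 9 held 12.4 to 16.5% of macrophages per mouse and 55.2% of all their Hilpda UMIs, but 15.9% of their Pdk1 UMIs and 17.8% of their Ldha UMIs. Its Hilpda level was 4.18 to 6.76 over the mice, and that of cluster 2, the largest, 0.414 to 0.626. Since the clusters were formed on these cells' genes, these are descriptions without a test.

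Among macrophages the 10 genes varied together from cell to cell. Over macrophages thinned to 10000 UMIs, 244 to 715 cells per mouse, all 45 pairs of the 10 genes had a Pearson r above 0 in every mouse. The median r was 0.306, 0.321, 0.268 and 0.221 in WT1, WT2, KO1 and KO2, and at most 0.00175 over all pairs of 8419 genes. Here and below, the pairs of all genes were not matched to the 10 genes for level or detection. Ldha with Aldoa had the highest mean r, 0.66, followed by Pgk1 with Aldoa, 0.57, and Aldoa with Bnip3, 0.56. Pairs with Pdk1 were among the weakest, from 0.05 with Vegfa to 0.17 with Bnip3, a range that also held Ldha with Vegfa (0.13). In monocytes thinned to 5000 UMIs the median r was 0.286 to 0.420, and 45, 44, 45 and 40 of the 45 pairs were above 0 in WT1, WT2, KO1 and KO2, with the lowest r, −0.21, among the 37 cells of KO2. In T cells thinned to 4000 UMIs the median r was 0.199 to 0.309 over 28 pairs in 3 mice, of which 26, 28 and 25 were above 0 in WT1, KO1 and KO2. Over all gene pairs the median r was −0.0391 to −0.00251 in these monocytes and −0.0496 to −0.00308 in these T cells. Cells of a mouse share a library, so these values describe the samples and carry no test.

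**Figure D4:**
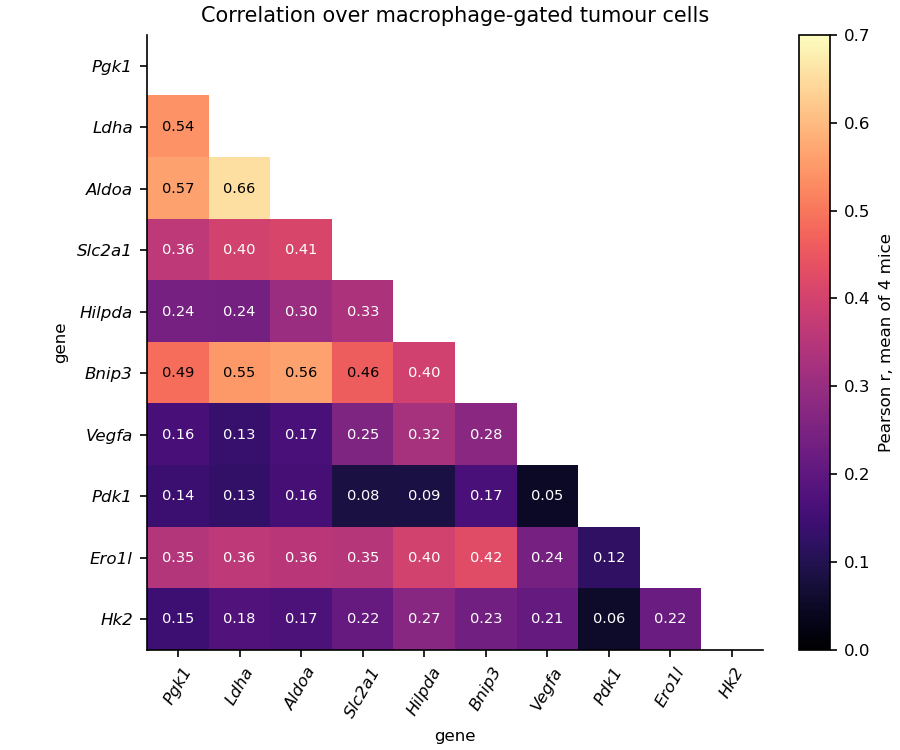
Pearson correlation of log levels for each pair of the 10 genes over macrophage-gated tumour cells thinned to 10000 UMIs, mean over the 4 mice. Ldha, Aldoa, Pgk1 and Bnip3 form the brightest block, and the Pdk1 row is dark.

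Genes outside the 10 with the most similar pattern included many glycolytic genes, beside others. Over 2468 macrophages, the mean of the 10 genes correlated best with Tpi1 (triosephosphate isomerase, r = 0.69; 0.57 to 0.74 by mouse), Mif (a cytokine, 0.64), Pgam1 (phosphoglycerate mutase, 0.63) and Gapdh (0.60). Egln3 reached 0.59. The log UMIs of the cell had an r of 0.14 with the same mean. Over 18 class and tissue means, which share libraries and depth, Pkm (pyruvate kinase) came first at 0.98, then Prelid1 (a mitochondrial lipid transfer protein) at 0.95 and Tpi1 at 0.94. Within the 10 genes, the r of each with the mean of the other 9 over these classes was 0.83 to 0.91 for 8 genes, 0.53 for Hk2 and 0.40 for Pdk1.

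In the nodes the class that stood out was the mature DC, the Ccr7-positive, Fscn1-positive migratory state. Its Ldha level was 0.752, 0.728 and 0.750 in dLN of WT1, WT2 and KO1, the mice with 20 such cells. T cells of those mice were at 6.09, 5.36 and 5.93 (−2.81, SE 0.10, limma adjusted p = 2.10e-17), and cDC1 of WT1, KO1 and KO2 at 6.87, 6.34 and 6.77 (−3.05, SE 0.11, adjusted p = 9.71e-17). Mature DC lay below every other class, with differences of −2.40 from cDC2, −2.07 from pDC and −1.78 from B cells, and no overlap. The same was seen in ndLN, at 0.651, 0.659, 0.629 and 0.448, where B cells, the next class, were at 2.58 to 2.96. The calls for Ldha in dLN held under all 13 alternatives of each of the 5 comparisons.

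Slc2a1 was also low, at 0.0250, 0 and 0 in mature DC of dLN, and was called lower than in each of the 5 classes, by 0.71 (cDC1) to 2.35 (B cells) on the log2 scale. The smallest of these, against cDC1, was lost under 6 of 13 alternatives. Pdk1 was at 0.0452, 0.0338 and 0 and was lower than in T cells (−2.94, SE 0.21, limma adjusted p = 1.26e-11), B cells, cDC1 and pDC. The Pdk1 call against cDC1 (−0.76) was lost with a pseudocount of 1 and without WT1 or KO1, and that against pDC (−0.66) with a pseudocount of 1 and without KO1. Glycolysis genes did not all follow. Aldoa, at 5.17, 4.53 and 4.02, was higher than in cDC1 (0.53), cDC2 (0.61) and pDC (0.80), and Pgk1, at 1.09, 1.17 and 1.07, was higher than in B cells (0.60), cDC2 (0.56) and pDC (1.16). Some of these calls were lost: Aldoa against cDC1 with the mean of log2 values (0.21, limma adjusted p = 0.0699), and Pgk1 against cDC2 with the mean of log2 values (0.14, adjusted p = 0.105), without KO1 (0.55, adjusted p = 0.0896) and without KO2 (0.49, adjusted p = 0.0594). Per comparison 1 or 2 of 8 tested genes were higher and 2 to 4 lower. The shares over all genes were 22.8% higher and 36.7% lower against T cells, 20.4% and 40.4% against B cells, 21.2% and 26.7% against cDC1, 19% and 26.6% against cDC2, and 17.3% and 42.1% against pDC, so the counts alone lie near those of all genes.

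Related genes in mature DC of dLN showed the same mix. Of 14 glycolysis genes tested, 2 were higher and 8 lower than in T cells (22.8% and 36.7% of all genes), and 1 was higher and 7 lower than in cDC1 (21.2% and 26.7%). Pfkfb3, which makes the activator of phosphofructokinase, was higher by 4.62 against T cells, 4.19 against cDC1 and 2.84 against cDC2, the largest difference of any listed gene in each. Vhl, the ligase subunit that marks HIF for degradation, was higher by 3.37, 2.08 and 2.03. Eno1 (enolase) was lower than in T cells by 1.98 on the log2 scale. Hk2 and Vegfa were under the detection filter in these fits.

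The order of the node classes differed from gene to gene, and Pdk1 alone of the 10 had its highest mean in T cells. For Pdk1, T cells were highest in dLN (0.816 to 0.998), then B cells (0.161 to 0.260), with no overlap between them or with the classes below. Below them, cDC1, pDC, cDC2 and mature DC overlapped in turn. Hk2 was instead highest in cDC2 (0.154 to 0.300) and cDC1 (0.173 to 0.262), above T cells (0.0102 to 0.0307). Between dLN and ndLN within T cells, B cells, mature DC, cDC1 and pDC, limma called 0 of 34 tests of the 10 genes, limma-voom called 0, and 1 had an unadjusted p below 0.05 (Pdk1 in T cells, 0.30 higher in dLN, limma adjusted p = 0.584). The percentage of all genes called was 0.0148% in T cells, 0% in B cells and mature DC, 0.0112% in cDC1 and 0.0488% in pDC.

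Knockout and control mice did not differ in these genes by any test that was called. Over 14 comparisons of KO with WT, by class and tissue or between tissues, limma called 0 of 107 tests, limma-voom called 0, and 4 had an unadjusted p below 0.05. Of all genes, 0.0417% were called in macrophages, 0.0626% in monocytes and 0.0143% in tumour T cells; the share was 0.0498% in dLN B cells, 0.0244% in pDC of each node and 0% in the other comparisons. In macrophages, the largest class, the 10 differences ran from −0.18 to 0.19 and their 95% intervals from −0.48 to 0.50. Ldha was at 19.6 and 19.7 in WT and 19.2 and 17.9 in KO macrophages (−0.08, SE 0.13, limma adjusted p = 0.918), with both KO mice below both WT mice. Aldoa was also not called, with both KO mice above both WT mice. Its log2 difference was 0.18 for KO1 minus WT1 and 0.16 for KO2 minus WT2. Vegfa was at 0.542 and 0.629 against 0.689 and 0.675 (0.19, SE 0.10, adjusted p = 0.776), with both KO mice above both WT mice; with Leiden clusters in place of the gate the difference was −0.13 (adjusted p = 0.899).

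In tumour T cells the 95% intervals differed in width between the 8 tested genes, from −0.33 to 0.38 for Ldha, the narrowest, to −0.80 to 0.68 for Ero1l, the widest; that of Slc2a1 was −1.15 to 0.22. Bnip3 was at 1.66 and 1.56 in WT and 1.66 and 0.827 in KO T cells (−0.42, SE 0.29, adjusted p = 0.453). The difference of KO minus WT between tumour and dLN T cells was also not called for any gene (lowest adjusted p = 0.763). In mature DC of ndLN, Bnip3 was at 0.128 and 0.176 in WT and 0.0744 and 0 in KO (−0.93, SE 0.37, adjusted p = 0.501), and it was called when KO1 was left out (−1.33, adjusted p = 0.0207).

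By its mean per mouse, Hilpda in tumour monocytes set 1 mouse apart. Its level was 0.576 in WT1 and 2.74 in WT2, and 2.52 and 2.31 in KO1 and KO2 (0.86, SE 0.43, limma adjusted p = 0.938). The mean of WT1 was low and those of the other 3 mice were alike, but the mean of KO2 rested mostly on 3 of its 41 cells. With the channel as a replicate block the difference was called (adjusted p = 5.6e-05), yet the channels went opposite ways, with 1.95 for KO1 minus WT1 and −0.24 for KO2 minus WT2. The gated monocytes fell mostly in 2 clusters. Cluster 3 held 103, 109, 66 and 26 of those of WT1, WT2, KO1 and KO2, at Hilpda levels of 0.852, 3.04, 2.70 and 0.456, so KO2 was low there together with WT1. Cluster 11 held 55, 49, 51 and 11, at 0.0221 to 0.192. Cluster 9 held 1, 4, 6 and 3, at 0, 29.8, 23.1 and 25.8, so the value of WT1 there is that of 1 cell. Apart from its 3 cells of cluster 9, KO2 was low like WT1.

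**Figure D5:**
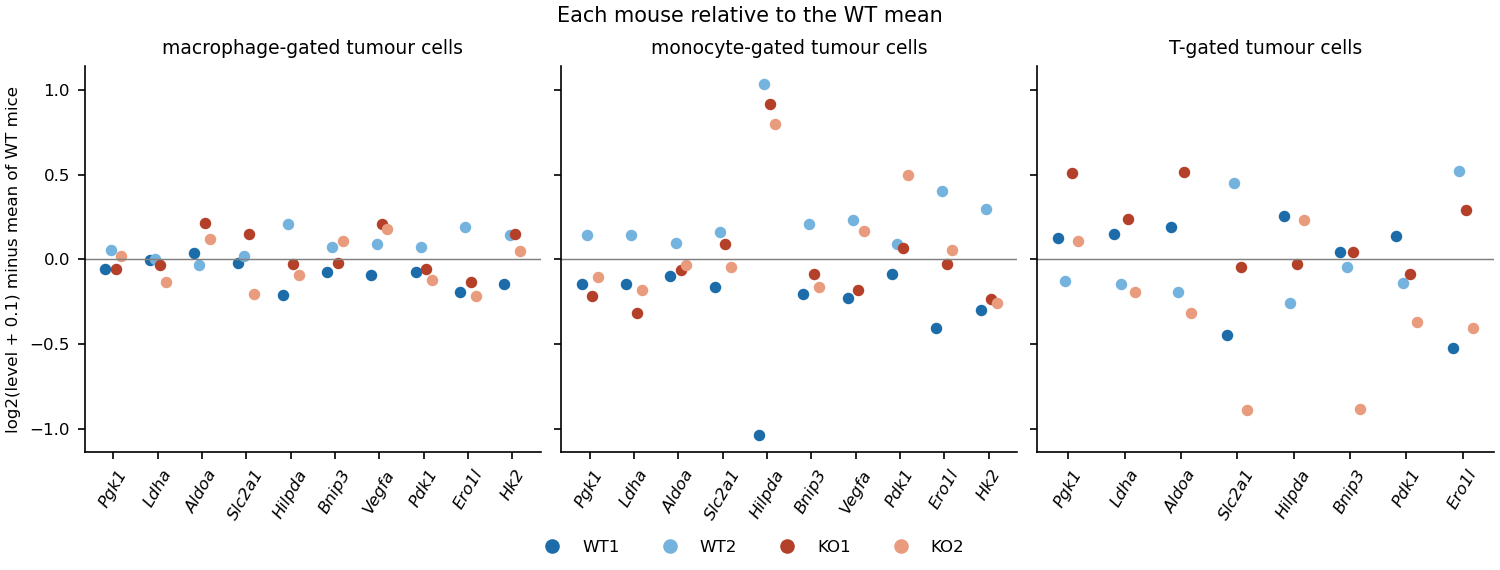
Each mouse's log2(level + 0.1) minus the mean of the WT mice (vertical axis) for each gene in macrophage-, monocyte- and T-gated tumour cells. In macrophages points of both genotypes mix around 0 for most genes. Both KO mice lie above both WT mice there for Aldoa and Vegfa, and below them for Ldha, none of which was called. WT1 lies alone at the bottom for Hilpda in monocytes.

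Classes with 10 to 19 cells per mouse are given as levels without a test. Neutrophils of WT1 and WT2, 19 cells each with median depths of 1702 and 2018 UMIs, had Hilpda levels of 3.30 and 21.2. Slc2a1 was at 2.60 and 4.98, Bnip3 at 4.35 and 8.23 and Ero1l at 1.85 and 4.21. The mean of the 2 mice lay above the monocyte mean for these 4 genes, Pdk1 and Hk2. The Slc2a1 level of WT1 was nevertheless below every monocyte sample. For Pgk1 (3.73 against 5.12), Ldha (11.5 against 18.2), Aldoa (13.9 against 22.9) and Vegfa (0.989 against 1.065) the neutrophil mean lay below that of monocytes. In tumour cDC1 of WT1 and WT2, Ldha was at 16.2 and 15.1, above the 6.34 to 6.87 of dLN cDC1, and Hilpda at 0.125 and 0.188. Tumour cDC2 had Ldha levels of 7.98 and 9.52 and no Vegfa UMI in either mouse. Fibroblasts, 10 cells or more in WT1, WT2 and KO1, had Pgk1 levels of 8.90, 8.02 and 8.47, higher than in any macrophage sample. Regulatory T cells of the tumours of WT1 and KO1 had Hilpda levels of 3.50 and 2.16 and Ldha levels of 22.7 and 26.7, the latter above every macrophage sample.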

How the data were processed

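The alignment build was mm10 and the software Cell Ranger 3.0.2, per the submitters' processing notes. The rest of that processing (demultiplexing of mice, cell filters, doublets) is not given in the sources used here. Natural log values were deposited by the authors, ln(1 + UMIs per 10000 of the cell), with the mouse and tissue of each cell. Back-transformed values summed to 10000 per cell, and 100% were whole multiples of 1 UMI within 0.01, so UMIs were recovered. No cell was filtered and no doublet caller was run. All value columns were mapped (0 unmapped).

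A gate asked for UMIs of 2 to 5 markers of its class; macrophages needed 2 C1q genes, and monocytes, cDC1 and cDC2 at most 1. Means per mouse, class and tissue of at least 20 cells were tested as log2(level + 0.1) with limma 3.58.1 (trend, R 4.3.3). The unit being normalized, a count model was not the main test. Tissue and class comparisons had the mouse as a term and KO comparisons none. Tests are two-sided. Mice are separate animals, 2 per genotype. Replicate numbers pair mice by droplet channel, as the labels state; deviations of same-channel mice correlated across genes by −0.01 to 0.37 in 8 class and tissue sets. Clusters were made with scanpy 1.11.5 and leidenalg 0.10.2 on 2000 genes. The fit was tested on simulated data. Alternatives were another pseudocount, filter, averaging, cell minimum, block, gate and each mouse left out; limma-voom was added after the data were seen.

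The 10 genes were named everywhere; other pathway genes were named where called, from the 8 largest differences of a comparison. Egln3 in T cells was added after its value was seen. Clusters 2, 3, 9 and 11 and the neutrophil, fibroblast and tumour DC values were picked after their values were seen. The members and lists were chosen with earlier results of these data known.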

Additional observations from a re-analysis of the deposited data

Results flagged for a closer look

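The tumour minus dLN difference was larger in T cells than in B cells of WT1 and KO1 for 7 genes, by a limma test of the difference itself that was added after the data were seen (Benjamini-Hochberg adjusted p over 7052 genes). For uptake and glycolysis the difference of differences, in log2 units, was 3.01 for Slc2a1 (adjusted p = 0.0258), 2.21 for Aldoa (adjusted p = 0.00449), 1.21 for Pgk1 (adjusted p = 0.0484) and 1.26 for Ldha (adjusted p = 0.0230). For the other genes it was 3.09 for Bnip3 (adjusted p = 0.00819), which passed the detection filter mostly through tumour T cells, 2.69 for Ero1l (adjusted p = 0.0353) and 2.62 for Hilpda (adjusted p = 0.0321). All were above 0 under 10 alternatives each; Aldoa and Bnip3 were called under all 10, Slc2a1 under 9, Ldha and Ero1l under 8, Hilpda under 7 and Pgk1 under 6. The tumour B cells behind it number 23 and 20, and their macrophage markers summed to 4.61 and 9.54 UMIs per 10000, against 1.52 and 2.79 in T cells of the same tumours.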

How the results depend on the processing

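Over all alternatives, 3242 values for the 10 genes kept their direction and side of the threshold, 62 lost and 38 gained a call, 75 uncalled or counted values moved, and 7 called or compared values changed sign. Pdk1 between tumour and dLN over all cells became 0.015 with the mean of log2 values per cell. With Leiden clusters in place of the gate, macrophage minus monocyte turned positive for Slc2a1 (1.39), Hilpda (3.10), Bnip3 (2.79), Vegfa (1.89), Ero1l (2.02) and Hk2 (0.69), and 10 genes were called in place of 0; 2 were called with a pseudocount of 1, 2 with the mean of log2 values and 5 by limma-voom. Of the 7 genes called for T minus B cells, 3 were left with no detection filter, 4 with summed UMIs and 4 by limma-voom. Macrophage minus NK cells kept 5 of 8 calls with summed UMIs, and mature DC minus cDC1 2 of 4 with a pseudocount of 1. With one mouse left out, macrophage minus T cells gave 3 (without KO2) to 7 calls (without KO1), and KO minus WT in mature DC of ndLN 0 to 1. The replicate block by channel gave 1 call in KO minus WT, Hilpda in monocytes, and changed no other KO call of the 10 genes; without the mouse term, the Ero1l call for macrophage minus T cells was lost (adjusted p = 0.0834 by limma). The causes were not tested.

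Counts over all genes moved more. Tumour minus dLN in T cells gave 1836 genes, 1113 without WT1 and 1209 without KO1; T minus B cells gave 400, and 132 to 693 otherwise; macrophage minus monocyte gave 1228, and 742 to 3761 otherwise. KO minus WT gave 4 genes in macrophages, 162 without WT1 and 104 with the replicate block; 5 in monocytes and 55 with the block; and 1 in tumour T cells but 1538 without WT1, which leaves WT2 and its 20 T cells as the only control.

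Depth limits the low genes: Vegfa and Hk2 were under the detection filter in the comparisons of tissues or genotypes within T and B cells. Few tumour B, NK and nonclassical monocytes, and 2 mice per genotype, leave wide intervals.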
